A study of Mus musculus with 10 samples.

Results

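The genes described here were the tubulins, the motor proteins that walk along microtubules and the factors that hold or regulate them, measured in the mouse hippocampus. They comprised the alpha, beta, gamma, delta and epsilon tubulins, the kinesins and kinesin light chains, the chains of cytoplasmic dynein, the dynactin subunits and the stathmins. Members were taken by gene symbol from family name patterns, and 85 of 22206 transcript clusters (the probe sets that stand for 1 gene on the Clariom S Mouse array) belonged to them, each with a symbol of its own. Another 4 clusters carried a family symbol together with the symbol of a different gene and were not counted. Among these was the only cluster for Kif17, a dendritic cargo motor, which shares its probes with Sh2d5 and differed by 0.10 between the lines.

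The comparison was between 5 male DU6 mice and 5 male FztDU mice, with the hippocampi of 1 mouse on each array. DU6 is an outbred line bred over many generations for high body mass and carries the label polygenic obesity, and FztDU is the unselected outbred line kept as its reference with the label of physiological metabolism. Sample labels gave an age of 21 to 22 weeks for both lines, although the study's text also gives a younger age in one place, and all mice were housed under specific-pathogen-free conditions without further treatment. Both lines are outbred, so mice of a line are not genetically identical, and a difference between lines is a difference between these 2 breeding colonies. The values are log2 signals normalised by the depositors, in which a difference of 1 is 2-fold.

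Microtubules are hollow tubes built from dimers of alpha and beta tubulin. Gamma tubulin starts new tubes, and delta and epsilon tubulin belong to the centriole, the barrel-shaped body from which cilia and flagella grow. In neurons, kinesins carry vesicles, mitochondria and RNA mostly outwards along axons and dendrites, dynein with its dynactin partner carries cargo back towards the cell body, and stathmins bind free tubulin dimers.

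Of the 85 genes, 81 were expressed in both lines by the depositors' own calls, which is 95.3% against 80.8% of all clusters. Kif14 and Kif15, which act in cell division, and Kif2b, a microtubule depolymeriser, were expressed in neither line, and Kif7, a regulator of Hedgehog signalling in the cilium, was called in DU6 only. All 8 hippocampal neuron markers were expressed in both lines, and array medians lay between 5.47 and 5.52. Of these markers, Spink8 was higher in DU6 (1.06, adjusted p = 0.143 by limma) and C1ql2 lower (-0.65, adjusted p = 0.300 by limma). The others did not reach an unadjusted p of 0.05 by limma. The part of cell composition in the member values was not tested. Of the arrays, 3 stood apart by choroid plexus genes such as Ttr: DU6 replicates 1 and 5 and FztDU replicate 5, with a mean deviation of 2.20, 2.11 and 1.80 over 8 markers against -1.24 to -0.08 in the other 7. DU6 replicate 2 stood apart by cerebellar genes such as Gabra6, with 4.52 over 8 markers against -0.79 to -0.09 elsewhere. For some members, Tubd1 and Dync1h1 among them, the difference is also given without these arrays. Leaving out all 4 kept only DU6 replicates 3 and 4, set against FztDU replicates 1 to 4. For single members only some alternatives are printed, and no member but Tubd1 passed an adjusted p of 0.05 in any alternative.

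Tubd1, which encodes delta tubulin, was the only member that differed between the lines after adjustment over all clusters. Its log2 signal was 6.77, 6.72, 7.02, 6.78 and 6.59 in DU6 replicates 1 to 5 and 5.97, 6.10, 5.93, 6.02 and 6.44 in FztDU replicates 1 to 5. Every DU6 array was above every FztDU array, and the arrays that came closest, DU6 replicate 5 and FztDU replicate 5, were both among those with high choroid plexus genes. These arrays also had the highest mean over 6 clusters of thalamus markers (0.85 and 1.21, others -0.57 to 0.17), while DU6 replicate 1, with the highest choroid plexus mean, read 6.77. The 8 markers of motile ciliated ependymal cells had a median difference of 0.315 between the lines, with 7 above 0 and 1 below. The part of any of these tissues in the values was not tested. The mean was 6.78 ± 0.16 in DU6 and 6.09 ± 0.20 in FztDU (SD, n = 5 each), a difference of 0.68 (95% interval 0.43 to 0.94) or 1.61-fold, with an adjusted p of 0.0493 by limma. By permutation of the line labels (exact, two-sided), p was 0.00794, the smallest that 5 arrays per line allow. In bulk tissue, more cells that express a gene and more of its RNA per cell cannot be told apart.

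The Tubd1 call lay at the threshold. With any 1 of DU6 replicates 1 to 5 or FztDU replicates 1 to 4 left out the adjusted p by limma rose above 0.05, up to 0.153, whereas without FztDU replicate 5 it was 0.0114 with a difference of 0.77. Without the 3 arrays with high choroid plexus genes the difference was 0.84 (adjusted p = 0.0565 by limma), and without these and the cerebellar array it was 0.90 (adjusted p = 0.104 by limma). With the replicate number as a block, the adjusted p was 0.239 by limma. DU6 was the higher line in all 18 alternatives, with differences from 0.62 to 0.90. As every DU6 array was above every FztDU array, leaving arrays out could not change that direction.

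**Figure D1:**
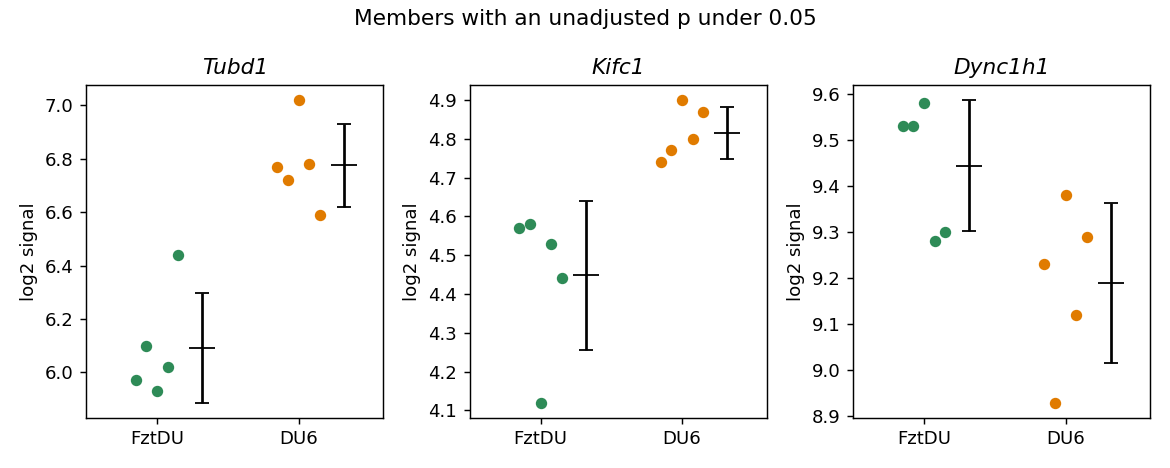
Log2 signal of Tubd1, Kifc1 and Dync1h1 in each array of the FztDU (green) and DU6 (orange) lines, 1 point per mouse, with the mean and SD in black beside the points (n = 5 per line); the vertical axes do not start at 0 and differ between panels. The lines do not overlap for Tubd1 (5.93 to 6.44 against 6.59 to 7.02) and Kifc1, and do overlap for Dync1h1.

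Tubd1 lies on chromosome 11 at 86544991 to 86567360 on the plus strand (mm10), back to back with Rps6kb1, which encodes a ribosomal protein kinase of the mTOR pathway and runs the other way. The annotated starts of these genes are 184 bases apart. The window from 250 bases before to 50 bases after the Tubd1 start (chr11:86544741-86545040, plus strand, RefSeq, GRCm38.p6) is printed because the called gene and its neighbour share 283 bases of their 300-base windows. Capitals mark matches to GCATGCG on either strand, the core letters of the palindrome that the factor NRF1 is known to bind, a motif picked after the sequence had been read.
Tubd1: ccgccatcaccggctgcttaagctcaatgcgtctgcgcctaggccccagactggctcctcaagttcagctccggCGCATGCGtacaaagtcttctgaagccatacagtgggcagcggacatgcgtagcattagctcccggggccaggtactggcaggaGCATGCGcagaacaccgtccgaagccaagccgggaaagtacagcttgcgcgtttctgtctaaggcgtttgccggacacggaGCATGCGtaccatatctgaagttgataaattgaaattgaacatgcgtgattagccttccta
The window held 3 separate blocks of this motif, and 10 of 32851 windows of the same length (0.0304%) held as many or more, while 3.58% held at least 1. Among the members, 63 had a window, and 6 of them held the motif: Tubd1, Dync1h1, Dync1li1, Kif26a, Kif3a and Tuba3b. Kifc1 had no match. All 3 blocks lie in the bases shared with the Rps6kb1 window, so they are not particular to Tubd1. As the motif was picked from this sequence, its rarity over all windows is a description only. A match describes letters in the window and is neither a binding site nor a cause.

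No neighbour within 1 Mb of Tubd1 passed the adjusted threshold. Rps6kb1 read 8.45, 8.38, 8.20, 8.00 and 7.71 in DU6 replicates 1 to 5 and 8.31, 8.12, 8.15, 8.06 and 8.30 in FztDU replicates 1 to 5. Its arrays overlapped, with a difference of -0.04 (95% interval -0.34 to 0.26). Of the 22 clusters centred within 1 Mb on either side, 0 passed the adjusted threshold by limma and 2 had an unadjusted p under 0.05, both higher in DU6 (2.7% of all clusters were), with 0 lower (3.17%): Prr11, a cell-cycle gene (0.25), and Ints2, a subunit of the Integrator complex (0.21). Differences among the 22 ran from -0.22 to 0.25.

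**Figure D2:**
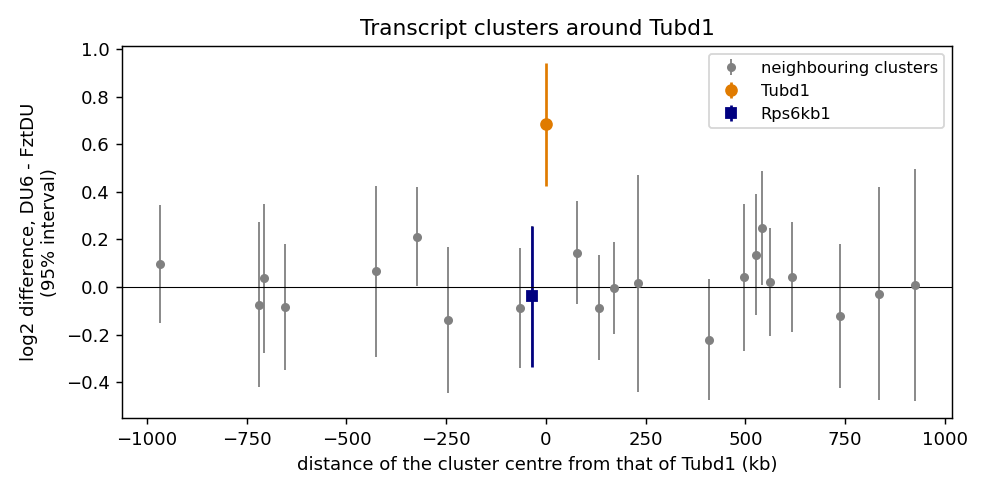
Log2 difference of DU6 minus FztDU (vertical axis, bars are 95% intervals) against the distance in kb between the centre of each transcript cluster and that of Tubd1. Tubd1 (orange) stands at 0.68 and Rps6kb1 (blue square) at -0.04, and the 22 neighbours lie between -0.22 and 0.25.

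Across the members as a whole, few differences stood beyond the replicate error. An adjusted p under 0.05 by limma was reached by 1 member higher in DU6, Tubd1 (1.18%), against 8 of all clusters (0.036%). Lower in DU6, 0 members reached it, against 28 of all clusters (0.126%). With a fold over 2 as well, 0 members passed and 25 clusters did (0.113%). At an unadjusted p under 0.05, 2 members were higher in DU6 (2.35%, against 2.7% of all clusters) and 1 was lower (1.18%, against 3.17%). Without overlap between DU6 and FztDU arrays were 2 members that were higher in DU6 (Tubd1 and Kifc1, 2.35%), against 0.513% of all clusters. In the lower direction there were 0, against 0.712%. The share of members past an unadjusted p was thus close to, or under, the share of all clusters. The members were chosen with earlier results of these data known, so shares that count Tubd1 cannot show an excess.

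The median difference was -0.01 over the members and 0.00 over all clusters, with 39 members above 0, 44 below and 2 at 0, namely Dync1li1 and Kif5b. Tubd1 was at the upper end with 0.68 and Dynlt1b at the lower end with -0.29, and the largest absolute difference among the other 84 was 0.38, for Tuba8. The 95% interval of the difference, not adjusted for the number of genes, lay within 1 on the log2 scale in either direction for 85 of 85 members and within 0.5 for 68 (80.0%, against 74.6% of all clusters). On the scale of these values, differences of 2-fold were therefore outside the interval of each member. Replicate spread was similar, with a median pooled SD of 0.193 for the members and 0.214 for all clusters.

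**Figure D3:**
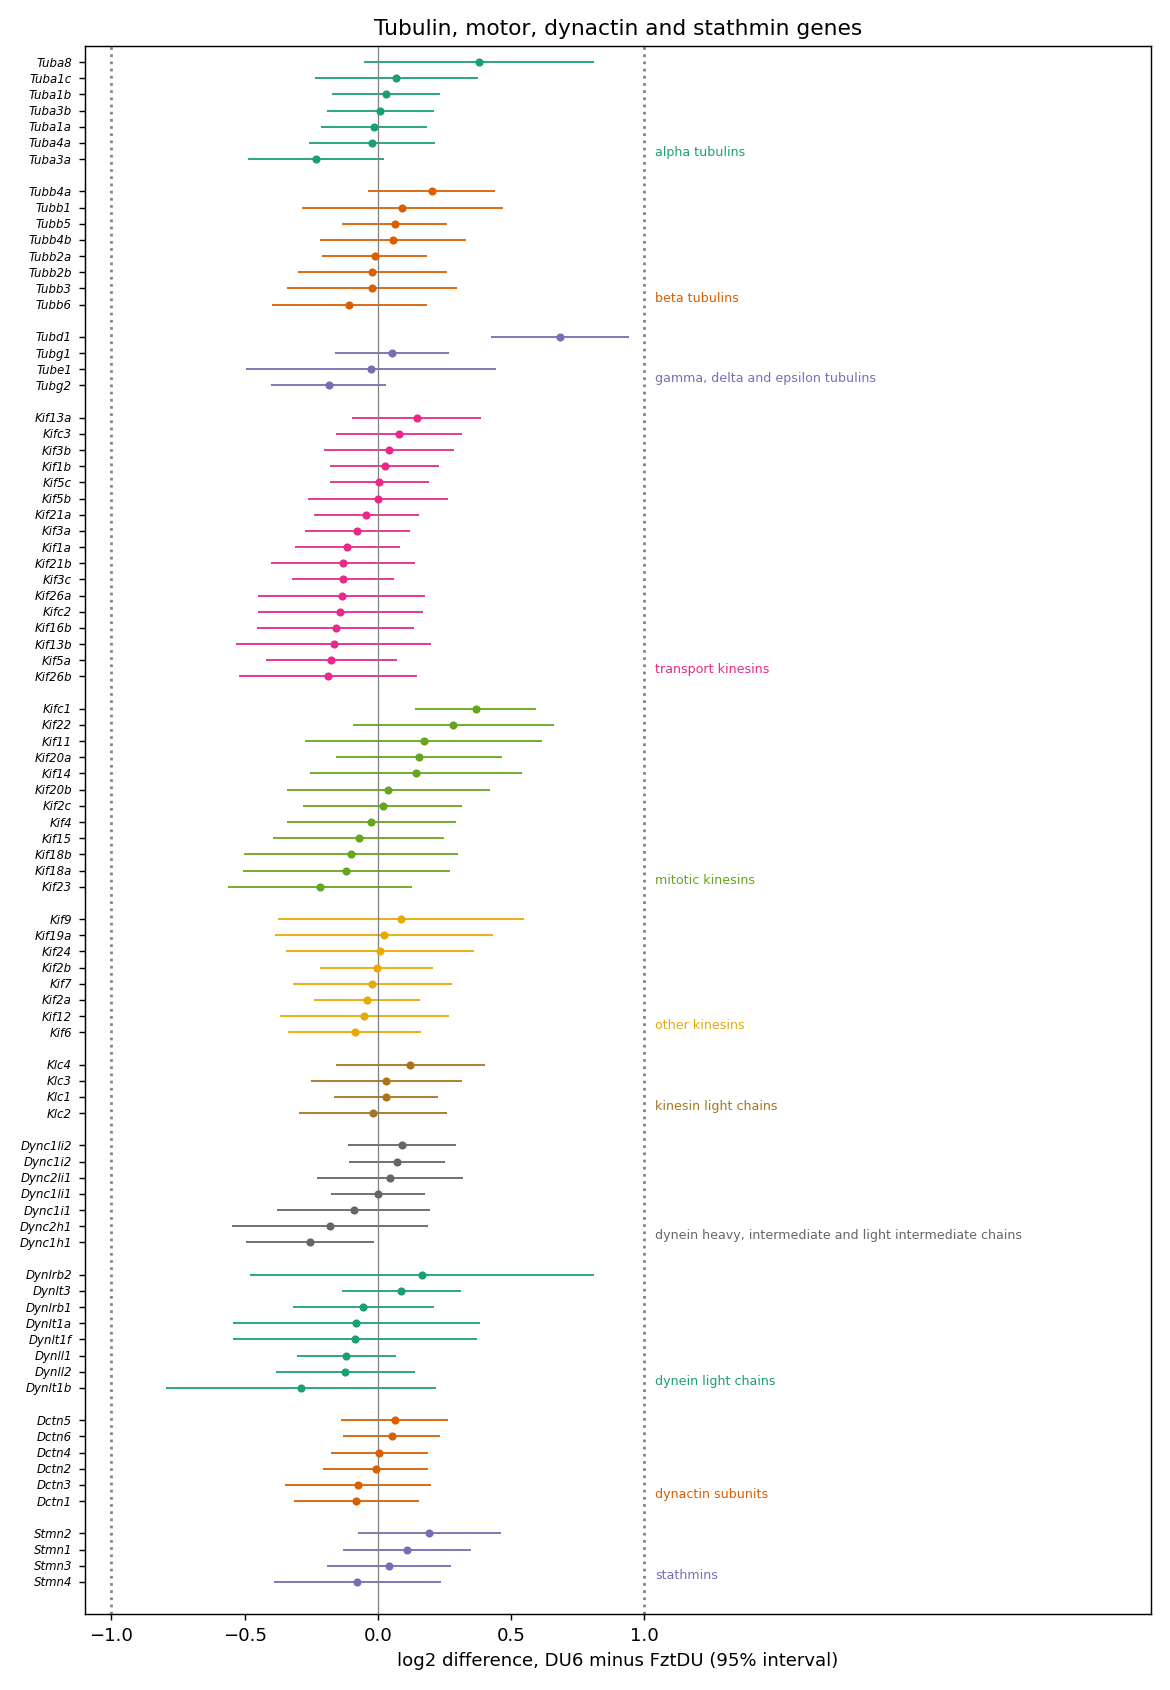
Log2 difference of DU6 minus FztDU (points, horizontal axis) with its 95% interval for each of the 85 members, grouped by family and ordered within each family; dotted lines mark a 2-fold difference. Tubd1 lies at 0.68, and the interval of every member stays inside the dotted lines.

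Among the tubulins that build the microtubule wall, no alpha or beta tubulin reached an unadjusted p under 0.05 by limma with all 10 arrays. The 7 alpha tubulins had a median difference of 0.01 and a range of -0.23 to 0.38, and the 8 beta tubulins a median of 0.02 and a range of -0.11 to 0.20. Tuba1a, the main alpha tubulin of developing neurons, read 10.72, 10.47, 10.44, 10.54 and 10.55 in DU6 and 10.65, 10.47, 10.45, 10.59 and 10.63 in FztDU, a difference of -0.01 (95% interval -0.21 to 0.18). Tubb3, the neuron-specific beta tubulin, read 8.75, 9.08, 9.14, 9.09 and 9.21 in DU6 and 8.69, 9.21, 9.24, 8.83 and 9.41 in FztDU. Its lines overlapped and DU6 replicate 1 was its low DU6 array (difference -0.02, 95% interval -0.34 to 0.30).

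Tuba8, an alpha tubulin isotype, had the largest point difference in this group. Its signal was 7.50, 8.31, 7.27, 7.65 and 6.99 in DU6 and 6.93, 7.17, 7.31, 7.26 and 7.15 in FztDU. The high DU6 array was replicate 2, the array with cerebellar genes, and the part of those genes in the value was not tested. The difference was 0.38 (95% interval -0.05 to 0.81, adjusted p = 0.917 by limma). It was 0.19 without DU6 replicate 2, 0.52 without DU6 replicate 5 and 0.58 without the 3 choroid plexus arrays (unadjusted p = 0.202, 0.0159 and 0.0289 by limma). Tubb4a, a beta tubulin of neurons and oligodendrocytes, was also highest in DU6 replicate 2, at 11.76 against 11.32 to 11.44 in the other DU6 arrays and 11.07 to 11.41 in FztDU. Its difference was 0.20 (unadjusted p = 0.0882 by limma), 0.12 without that array and 0.32 without the 3 choroid plexus arrays (unadjusted p = 0.226 and 0.0353 by limma). With trend and robust eBayes its unadjusted p was 0.0321 by limma. Tuba3a, an alpha tubulin best known from testis, differed by -0.23 (unadjusted p = 0.0721 by limma), by -0.30 without DU6 replicate 2 and by -0.38 without the 4 arrays (unadjusted p = 0.0228 and 0.0432 by limma). Adjusted p for Tuba3a without these arrays was 0.666 and 0.998 by limma. With array weights its unadjusted p was 0.042 by limma. Tuba4a, an alpha tubulin without the genome-encoded C-terminal tyrosine, differed by -0.02. Tubb2a and Tubb2b, the class II beta tubulins of neurons, differed by -0.01 and -0.02, the widely expressed Tubb5 by 0.06 and Tubb6 by -0.11 (95% interval -0.40 to 0.19).

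The other minor tubulins, Tube1, Tubg1 and Tubg2, did not pass the test. Tube1, epsilon tubulin, which works beside delta tubulin in the centriole, read 4.18, 5.30, 4.53, 4.46 and 4.38 in DU6 and 5.10, 4.17, 4.45, 4.84 and 4.42 in FztDU. Both lines contained a high array, DU6 replicate 2 and FztDU replicate 1, and the difference was -0.03 (95% interval -0.50 to 0.44), or -0.21 without DU6 replicate 2. For Tubg1, the gamma tubulin of most cells, the difference was 0.05 (95% interval -0.16 to 0.27), and for its brain-enriched copy Tubg2 it was -0.18 (95% interval -0.40 to 0.03), or -0.23 with an unadjusted p of 0.041 by limma without DU6 replicate 4.

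The 17 kinesins of intracellular transport had a median difference of -0.11, with 5 above 0, 11 below and 1 at 0, and none passed an unadjusted p of 0.05 by limma in either direction. Kif5a, the neuronal heavy chain of conventional kinesin, read 10.88, 10.93, 11.13, 11.00 and 10.87 in DU6 and 10.83, 11.41, 11.22, 11.07 and 11.15 in FztDU. The lines overlapped, with FztDU replicate 1 below all DU6 arrays (difference -0.17, 95% interval -0.42 to 0.07). Without FztDU replicate 1 it was -0.25 (unadjusted p = 0.036 and adjusted p = 0.9125 by limma). Its relatives Kif5b, which is found in most cells, and Kif5c, which is neuronal, differed by 0.00 and 0.01. Kif1a, the carrier of synaptic vesicle precursors, differed by -0.11 (95% interval -0.31 to 0.08), and Kif21b, a motor of dendrites and axons, by -0.13 (95% interval -0.40 to 0.14). For the kinesin-2 subunits Kif3a, Kif3b and Kif3c, which serve axons and cilia, the differences were -0.08, 0.04 and -0.13. The 4 kinesin light chains, which tie cargo to conventional kinesin, lay between -0.02 (Klc2) and 0.12 (Klc4), with Klc1, the main neuronal form, at 0.03 (95% interval -0.17 to 0.23).

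Among the 12 kinesins of cell division, Kifc1 was the member with the second smallest p after Tubd1. Kifc1 encodes a motor that moves to the minus end and gathers extra centrosomes into spindle poles. Its signal was 4.74, 4.77, 4.90, 4.80 and 4.87 in DU6 and 4.57, 4.58, 4.12, 4.53 and 4.44 in FztDU. The DU6 arrays were all above the FztDU arrays, and FztDU replicate 3 was the lowest. The difference of 0.37 (95% interval 0.14 to 0.60) had an unadjusted p of 0.00408 and an adjusted p of 0.392 by limma, so it did not pass the threshold. Its unadjusted p was under 0.05 in every alternative run. Kifc1 lies on chromosome 17 at 33875666 to 33890661 on the minus strand (mm10). Of the 92 clusters centred within 1 Mb, 1 passed the adjusted threshold, the class I histocompatibility gene H2-K1 (1.17, adjusted p = 0.00581 by limma). Of all clusters, 0.036% passed it in that direction. At an unadjusted p under 0.05 by limma, 4 of the 92 were higher (2.7% of all clusters were) and 4 lower (3.17%). Their median difference was 0.02.

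With all 10 arrays, none of the other 11 kinesins of division had an unadjusted p under 0.05 by limma. Kif22, a chromosome-arm motor, read 4.30, 3.81, 4.09, 4.27 and 4.88 in DU6 and 4.03, 3.70, 4.12, 4.18 and 3.90 in FztDU, with DU6 replicate 5 highest and the lines overlapping (difference 0.28, unadjusted p = 0.127 by limma). Its difference was 0.13 without DU6 replicate 5, 0.05 without the 3 choroid plexus arrays and 0.40 without DU6 replicate 2 (unadjusted p = 0.354, 0.766 and 0.029 by limma). For Kif11, which pushes spindle poles apart, the difference was 0.17 (95% interval -0.27 to 0.62), and for Kif23, a motor of the last step of division, it was -0.22 (95% interval -0.56 to 0.13). These genes had low signals, and the interval stayed within 0.5 for 5 of 12. The mean deviation over 8 markers of dividing cells, which include Mki67 and Top2a, ran from -0.11 to 0.08 in DU6 and from -0.08 to 0.21 in FztDU. Of these markers, 4 were expressed in both lines.

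The remaining 8 kinesins had a median difference of -0.01 and a range of -0.09 to 0.09. Kif2a, a kinesin that shortens microtubules and trims axon branches, was even across the arrays, with 9.32, 8.94, 9.03, 9.10 and 9.06 in DU6 and 9.11, 9.10, 9.18, 9.15 and 9.11 in FztDU (difference -0.04, 95% interval -0.24 to 0.16). Kif6, a kinesin of low signal, differed by -0.09 (95% interval -0.34 to 0.16).

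Dync1h1, the heavy chain of cytoplasmic dynein and thus its motor subunit, had the smallest p among the members with a lower mean in DU6. It read 9.23, 8.93, 9.38, 9.12 and 9.29 in DU6 and 9.53, 9.53, 9.58, 9.28 and 9.30 in FztDU. FztDU replicates 1 to 3 were above all DU6 arrays, FztDU replicates 4 and 5 were not, and DU6 replicate 2, the cerebellar array, was lowest. The difference was -0.25 (95% interval -0.49 to -0.01), with an unadjusted p of 0.0392 and an adjusted p of 0.829 by limma. The unadjusted p by limma rose above 0.05 without any 1 of DU6 replicates 1, 2 and 4 or FztDU replicates 1, 2 and 3, up to 0.099 without DU6 replicate 2 (difference -0.19), and it was 0.154 without the 4 arrays that stood apart (difference -0.23). The gene lies on chromosome 12 at 110601395 to 110666945 on the plus strand (mm10).

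Partners of the heavy chain lay near 0. The light intermediate chains Dync1li1 and Dync1li2, which bind adaptors, differed by 0.00 and 0.09, and the intermediate chains Dync1i1 and Dync1i2, which bind dynactin, by -0.09 and 0.07. For Dync2h1, the heavy chain of the dynein inside cilia, the difference was -0.18 (95% interval -0.55 to 0.19). The 6 dynactin subunits had the smallest median pooled SD of the families, 0.103, and a range of -0.08 to 0.06. Dctn1, the subunit that grips the microtubule, had 8.32, 8.51, 8.64, 8.62 and 8.76 in DU6 and 8.52, 8.59, 8.87, 8.68 and 8.59 in FztDU, with overlapping lines (difference -0.08, 95% interval -0.31 to 0.15). Dctn5, a subunit of the pointed end, differed by 0.06 (95% interval -0.14 to 0.27).

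Among the 8 dynein light chains, the 3 copies of Dynlt1 varied widely between DU6 mice. Dynlt1b had 6.21, 7.56, 6.14, 6.72 and 7.02 in DU6 and 7.17, 7.10, 6.75, 7.18 and 6.89 in FztDU. DU6 replicates 1 and 3 were low and DU6 replicate 2 was above all other arrays, and Dynlt1a and Dynlt1f had the same 2 low arrays and the same high array. Within DU6 the SD was 0.590 for Dynlt1b, 0.529 for Dynlt1a and 0.518 for Dynlt1f, against 0.190, 0.182 and 0.182 within FztDU. These genes are near-identical copies of a Tctex-type light chain, and whether their probes tell the copies apart was not tested, so the 3 patterns may be 1 measurement. The differences between lines were -0.29, -0.08 and -0.09, none with an unadjusted p under 0.05 by limma. Without DU6 replicate 2 they were -0.50, -0.24 and -0.25. For Dynlt1b the unadjusted p was then 0.0179 and the adjusted p 0.619 by limma. Without the 4 arrays that stood apart, which kept only DU6 replicates 3 and 4, they were -0.62, -0.39 and -0.34. There the unadjusted p of Dynlt1b was 0.0124 and its adjusted p 0.884 by limma. Dynll1, a light chain shared by many protein complexes, had 10.46, 10.30, 10.55, 10.56 and 10.48 in DU6 and 10.59, 10.54, 10.63, 10.62 and 10.56 in FztDU (difference -0.12, 95% interval -0.30 to 0.07). Its close relative Dynll2 differed by -0.12 as well (95% interval -0.38 to 0.14).

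**Figure D4:**
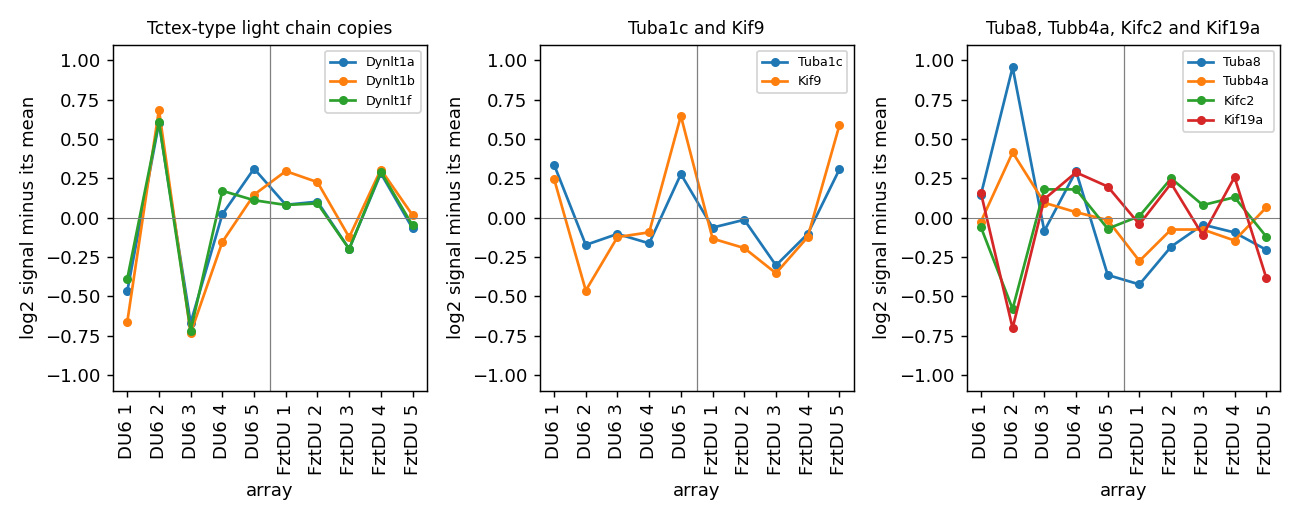
Log2 signal minus the mean of the 10 arrays for members whose values followed arrays rather than lines, picked after their values were seen; the horizontal axis is the array and the grey vertical line divides DU6 from FztDU. The Dynlt1 copies are low in DU6 replicates 1 and 3, Tuba1c and Kif9 are high in the 3 choroid plexus arrays, and Tuba8 (8.31) and Tubb4a (11.76) are high and Kifc2 (7.63) and Kif19a (4.54) low in DU6 replicate 2.

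Several members tracked the arrays with choroid plexus genes. Tuba1c, an alpha tubulin of many dividing and epithelial tissues, was 8.99, 8.93 and 8.96 in DU6 replicate 1, DU6 replicate 5 and FztDU replicate 5, and 8.35 to 8.64 in the other 7 arrays. Kif9, a kinesin of motile cilia, was 5.08, 5.48 and 5.42 in the same arrays and 4.37 to 4.74 in the others. Dynlrb2, a dynein light chain of ciliated cells that was also on the ependymal marker list, was 5.32, 5.46 and 5.26 there and 5.49 in FztDU replicate 4, against 4.11 to 4.87 in the other 6. The mean of all 8 ependymal markers, Dynlrb2 included, was 0.47 and 0.59 in DU6 replicates 1 and 5, 0.28 in FztDU replicate 4 and 0.01 in FztDU replicate 5, where Kif9 and Dynlrb2 were also high. It was 0.04, -0.22 and 0.04 in DU6 replicates 2 to 4 and -0.53, -0.47 and -0.21 in FztDU replicates 1 to 3. Without the 3 choroid plexus arrays the differences of Tuba1c, Kif9 and Dynlrb2 were -0.03, -0.03 and -0.03, against 0.07, 0.09 and 0.17 with all arrays. These members were picked after their high values in those arrays were seen, and more of those arrays are DU6 than FztDU. The drop therefore followed from the choice. Whether choroid plexus or ependymal tissue set these values was not tested.

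DU6 replicate 2 held the highest or lowest value for 36 of the 85 members (42.4%, against 32.6% of all clusters), more than any other array. Low there were Kifc2, a minus-end motor of neurons, at 7.63 against 8.09 to 8.46 elsewhere, and Kif19a, which controls cilium length, at 4.54 against 4.86 to 5.53. Without this array their differences were -0.01 and 0.20, against -0.14 and 0.02 with it, none with an unadjusted p under 0.05 by limma. Kifc2 and Kif19a were picked after their low values in this array were seen, so the rise without it followed from the choice. The hippocampal neuron markers of DU6 replicate 2 had a mean deviation of -0.42, the lowest of the 10 arrays.

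**Figure D5:**
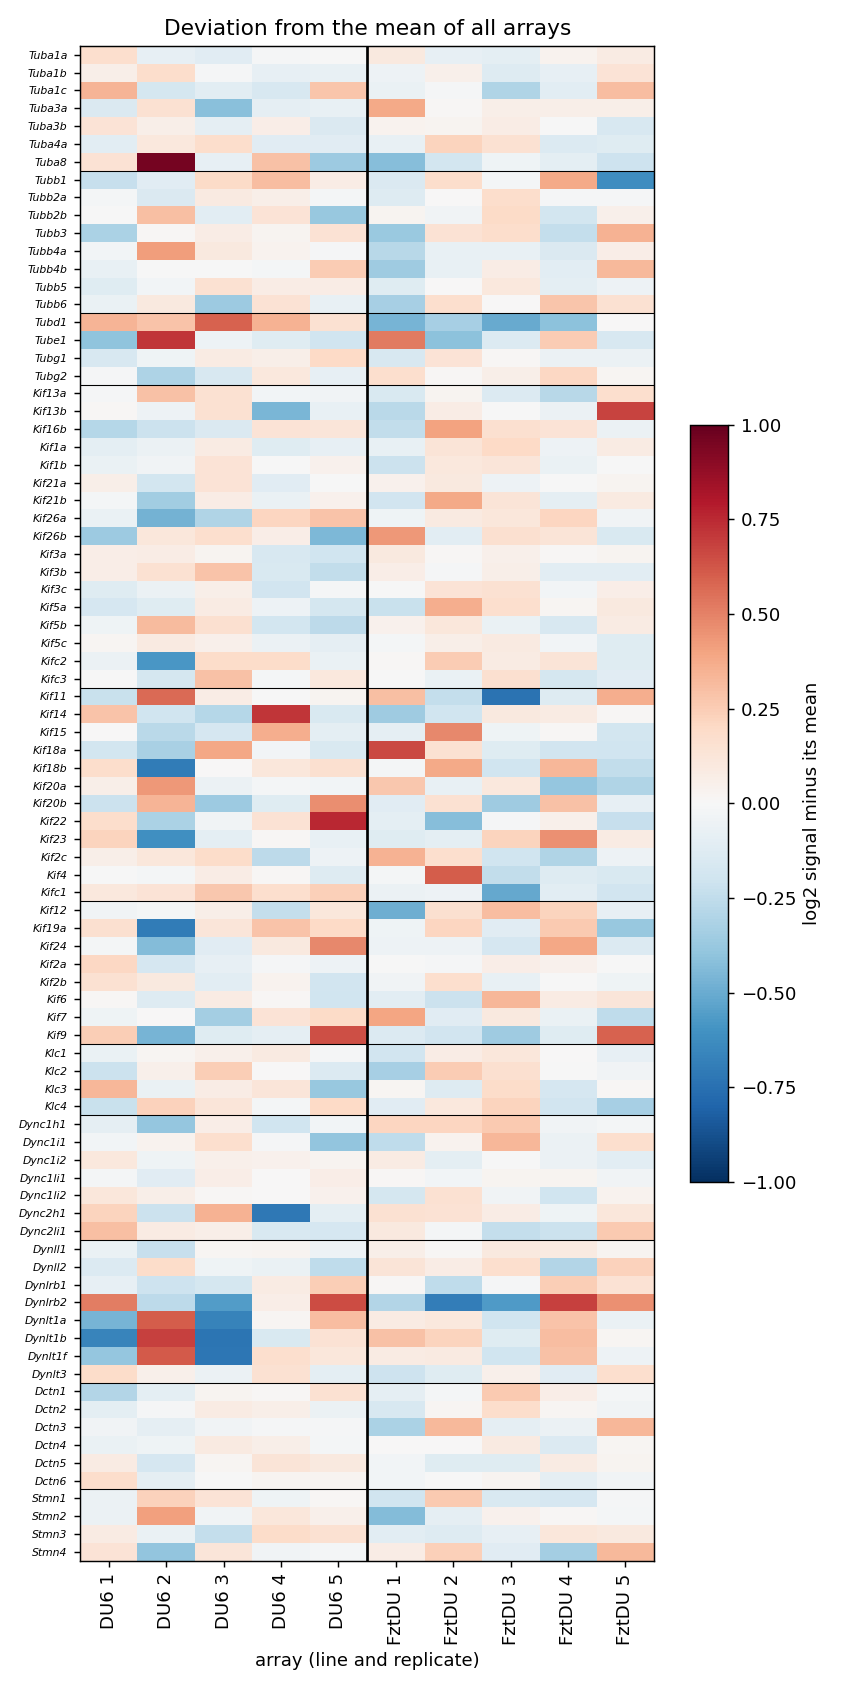
Log2 signal minus the mean of the 10 arrays, by colour from -1 (blue) to 1 (red), for each member (rows, thin lines divide the families) in each array (columns, the thick line divides DU6 from FztDU). Tubd1 is red in DU6 replicates 1 to 5 and blue in FztDU replicates 1 to 4, while most other rows mix colours within a line and DU6 replicate 2 has many strong cells.

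None of the 4 stathmins passed an unadjusted p of 0.05 by limma. Stmn2, which supports axon growth, read 11.05, 11.52, 11.07, 11.22 and 11.16 in DU6 and 10.67, 11.02, 11.15, 11.12 and 11.09 in FztDU. The lines overlapped, with the cerebellar array highest and FztDU replicate 1 lowest (difference 0.19, 95% interval -0.07 to 0.46, and 0.12 without the cerebellar array). Stmn1, best known from dividing and young neurons, differed by 0.11, and Stmn3 and Stmn4, both neuronal, by 0.04 and -0.08.

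Genes that fold, modify, nucleate or cut microtubules also gave no call after adjustment by limma, with 0 in each of 5 lists. Over the lists together, 2 of 110 genes were higher at an unadjusted p under 0.05 (1.82%, against 2.7% of all clusters) and 3 lower (2.73%, against 3.17%). Among 20 folding cofactors and chaperonin subunits, 0 had an unadjusted p under 0.05 in either direction. Among 27 enzymes that modify tubulin, 1 was higher in DU6, the glutamylase gene Ttll13 (0.27, not called expressed in FztDU), and 1 lower, the glycylase gene Ttll3 (-0.41). Of 17 genes of the gamma-tubulin complex and augmin, 1 was higher, the augmin subunit Haus1 (0.34). Among 21 severing and plus-end factors 1 was lower, Nav1 (-0.30), a plus-end protein of growing axons, and among 25 motor adaptors and regulators 1 was lower, Trak1 (-0.26), which links mitochondria to kinesin. The median differences of the lists, in the same order, were 0.00, 0.02, 0.05, -0.02 and 0.00, beside 0.00 over all clusters.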

How the data were processed

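RNA from the hippocampi of single mice was hybridised to Clariom S Mouse arrays. The paper names SST-RMA in Transcriptome Analysis Console, which corrects background and normalises between arrays. The deposited log2 values come with the mm10 annotation of the array. Their differences over all clusters ran from -3.65 to 2.73, a narrower range than the largest fold changes the paper prints. The deposited values may therefore be on another scale than the paper's fold changes, and which processing gave them was not tested. The table also holds the authors' averages, fold changes, p-values and expression calls per line; of these only the expression calls were used. Arrays give no counts, so precision is limited by the number of arrays.

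Each of 22206 transcript clusters was fitted with lmFit and eBayes in limma 3.58.1 (R 4.3.3), DU6 against FztDU, and p-values were adjusted by Benjamini-Hochberg over all clusters. The threshold was an adjusted p of 0.05. The fit was tested on simulated data. The members and lists were chosen with earlier results of these data known, and no p was adjusted over a list. Named were Tubd1, every member with an unadjusted p under 0.05, the 2 with the smallest p in each family and a set of textbook members; another 23 members were named after their values were seen. Pathway genes named are those with an unadjusted p under 0.05. Alternatives were quantile normalisation, median centring, leaving out the 25% of clusters with the lowest signal, trend and robust eBayes, array weights, a replicate block, other thresholds and leaving out arrays. Probe-level files were not used here. Promoter windows came from RefSeq (GRCm38.p6).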

Additional observations from a re-analysis of the deposited data

Results flagged for a closer look

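In 13 of 170 groups (the 85 members in each line of 5 arrays), the highest or lowest array stood apart from the rest of its line by the size of its gap relative to the range. The rule flags about 1 in 20 groups of independent normal values, whereas members here share arrays. The share of all clusters under this rule was not counted, so the count has no background beside it. Dynll2, a dynein light chain, was low in FztDU replicate 4 (8.44, others 8.81 to 8.96). Stmn2 was low in FztDU replicate 1 (10.67, others 11.02 to 11.15), and Tuba3a was high in the same array (4.78, others 4.41 to 4.46). Tubb3 was low in DU6 replicate 1 (8.75, others 9.08 to 9.21). Kif15, a gene called expressed in neither line, was high in FztDU replicate 2 (2.92, others 2.26 to 2.45). Kif4, another kinesin of division, was high in the same array (2.87, others 2.02 to 2.25), and Kif24, a kinesin of the centriole, was high in FztDU replicate 4 (4.20, others 3.64 to 3.76). Kif9 was high in FztDU replicate 5 (5.42, others 4.48 to 4.71), and the beta tubulin gene Tubb4b was high in DU6 replicate 5 (9.67, others 9.34 to 9.41), both arrays with choroid plexus genes. In DU6 replicate 2, the array with cerebellar genes, Tubb4a was high (11.76, others 11.32 to 11.44) and Kif19a low (4.54, others 5.36 to 5.53), and so were, among the kinesins of division, Kif20a (high, 3.47, others 2.98 to 3.10) and Kif18b (low, 3.74, others 4.44 to 4.61).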

How the results depend on the processing

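Tubd1 was higher in DU6 in all 18 alternatives, a direction that leaving arrays out could not change, since its arrays did not overlap. It was past the adjusted threshold by limma in 5: quantile normalisation, the low-signal filter, trend and robust eBayes, array weights and without FztDU replicate 5. It missed the threshold with arrays centred on their medians (0.67), the replicate block (0.68), without the 3 choroid plexus arrays (0.84) and without these and the cerebellar array (0.90), each leaving 0 members called. With 1 array left out its difference ran from 0.62 to 0.77 and the members called from 0 to 1. A fold over 1.5 in place of 2 gave 1 member past both thresholds, Tubd1, and the share of all clusters at that fold was not counted.

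At an unadjusted p under 0.05 by limma, the members higher in DU6 numbered 4 without the 3 choroid plexus arrays. Those lower numbered 2 with array weights, 2 without the 4 arrays, and 0 to 2 with 1 array left out. The share of all clusters at that p was not counted under these settings, so the counts have no background beside them. The causes were not tested.

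Over the 63 other named members, 1126 values under alternatives lay within 1 SD of the main value and 0 passed the adjusted threshold. The first result was fixed in advance for most settings. The low-signal filter, trend and robust eBayes and the block leave a difference unchanged, and leaving out 1 array cannot move it by 1 SD. The sign changed under an alternative for 31 of these members, whose largest absolute difference was 0.17. The low-signal filter left 75 of 85 members.

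Replicate numbers were shared by the labels of both lines, which do not say that they pair mice. Deviations correlated above 0.1 in 3 of 5 same-numbered pairs, and 2 of 5 DU6 arrays correlated best with their own number. The mean correlation was 0.104 for same-numbered pairs and -0.0258 for the others. Whether the numbers mark a shared step was not tested, and the main fit did not use them. Over all clusters, the block gave 22 calls against 36 without it.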
